A study of Mus musculus with 12 samples.

Results

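The livers described here are those of 6 female C57BL/6 mice given testosterone, out of 12 livers in the series. They were chosen by their sample titles: 3 were taken when the injections ended, and 3 after a period without injections. Each of these mice received testosterone under the skin, 0.9 mg per injection dissolved in sesame oil (100 µl), 2 times a week for 3 weeks. The other 6 livers came from female C57BL/6 mice that received the oil alone on the same schedule, 3 at each time, and they show what changed over the interval without hormone. The withdrawal lasted 12 weeks by the sample labels but 3 weeks by the series' design text, and which of them holds is not settled here. Neither the age of the mice nor the hour at which livers were taken is stated in the labels. Each array held the RNA of a single liver, no mouse was sampled at both times, and withdrawal and the passage of time cannot be told apart within the testosterone mice alone.

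Mouse liver differs between the sexes in the level of many genes for steroid, drug and fatty acid metabolism. In rodents the pattern of growth hormone release from the pituitary, in pulses in males and more evenly in females, is the main known signal that sets these levels, and it acts in hepatocytes through the transcription factor STAT5B. Androgens given to females are known to shift liver expression towards the male pattern, so the question put to these livers was which genes return to the level of vehicle mice once injections stop and which stay changed.

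Expression was measured as array signal, a brightness in arbitrary units that had been scaled to the same trimmed mean, 100.05, on every array, and it was analysed as log2 signal for 7217 genes above the low-signal filter. A gene is called where the adjusted p from limma, fitted on all 12 arrays and adjusted over all 7217 genes, was under 0.05. The tissue label was checked against hepatocyte markers. Alb, which encodes albumin, had signals of 5009 to 5267 at treatment end and 4872 to 6052 after withdrawal. Within a group, the correlation of log2 signals between arrays was 0.9866 to 0.9882 at treatment end and 0.9792 to 0.982 after withdrawal, against 0.9762 to 0.9779 between the groups. For the actin control probe sets, the 3' signal divided by the 5' signal, a sign of RNA integrity, was 2.11 ± 0.077 (SD, n = 3) at treatment end and 1.62 ± 0.179 (SD, n = 3) after withdrawal, with 1.52 ± 0.108 and 1.77 ± 0.154 in vehicle mice at these times. The testosterone groups did not overlap in this ratio, and the exact two-sided permutation p was 0.1, the smallest that 3 against 3 mice can give. The Gapdh ratio was 0.93 ± 0.025 at treatment end and 0.844 ± 0.0499 after withdrawal (SD, n = 3). That of pyruvate carboxylase was 18.8 ± 2.64 and 11.5 ± 3.32. Neither overlapped between the testosterone groups, each with the same exact p of 0.1. In vehicle mice the means were 0.763 and 0.797 for Gapdh and 6.06 and 14.1 for pyruvate carboxylase. Only the actin ratio was tried as a covariate. With the actin ratio added to the fit, 110 genes rather than 785 were called between the testosterone groups, 106 of them among the 785. Its part in the other calls was not tested. Genes named below as kept in that fit are the ones still called with it.

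Between treatment end and withdrawal, 785 of 7217 genes (10.9%) changed in the testosterone mice, 402 upward (5.57%) and 383 downward (5.31%). Of these, 159 changed at least 2-fold, 91 upward and 68 downward, and the median change over all genes tested was -0.01 on the log2 scale. The genes that rose most, among those whose groups did not overlap, were Egr1, Arntl, Chka, Nfil3, G0s2, Elovl3 and Ppp1r3c, by 2.23 to 2.73 on the log2 scale. The rise of Egr1, an immediate early transcription factor, was lost without withdrawn mouse 3. The genes that fell most were Dbp, Usp2, Per3, Lpin1, Myc and Foxq1, by between -2.63 and -5.38. Leaving out a single testosterone mouse left 454 calls without treatment-end mouse 1, 520 without mouse 2 and 498 without mouse 3. It left 483 without withdrawn mouse 2 and 482 without mouse 3, but 840 without withdrawn mouse 1.

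Part of this change was also present in vehicle mice, which share no animal with the testosterone groups. Over the same interval 1288 genes (17.8%) changed in vehicle mice, 795 upward (11%) and 493 downward (6.83%), and 317 genes were called in both treatments. Of those, 297 changed in the same direction, 167 upward and 130 downward, which is 37.8% of the testosterone list and 23.1% of the vehicle list. The other 20 changed in opposite directions. Among the 159 genes that changed at least 2-fold in testosterone mice, 88 were also called in vehicle mice in the same direction.

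**Figure D1:**
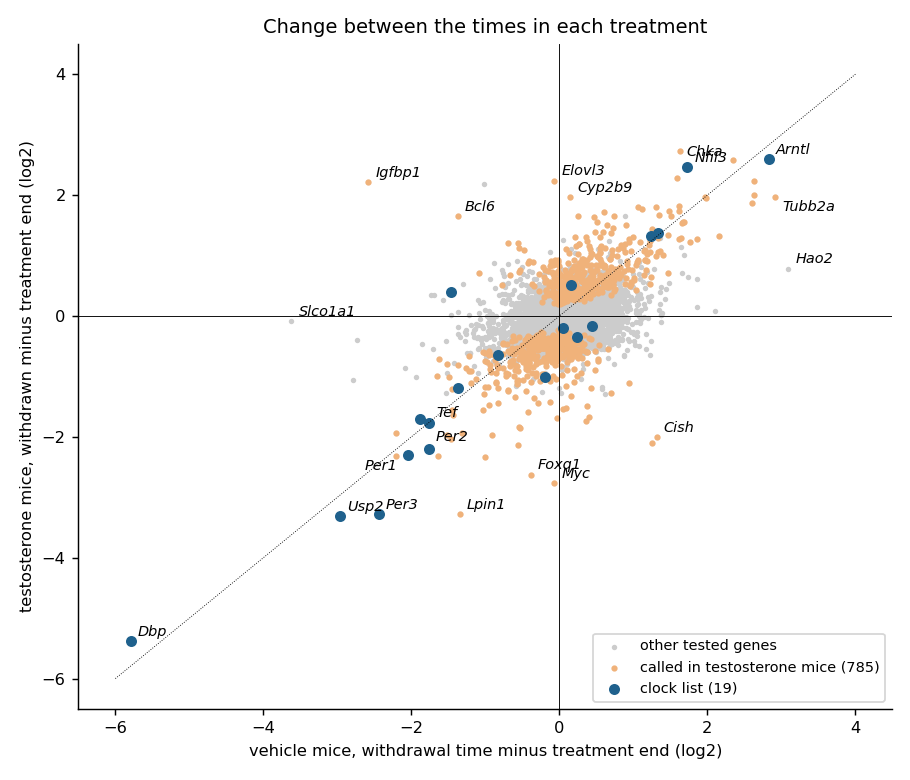
Each point is 1 of 7217 genes, with the log2 change from treatment end to the withdrawal time in vehicle mice on the x axis and in testosterone mice on the y axis; orange points are the 785 genes called in testosterone mice and blue points are the 19 clock genes tested. Most clock genes, such as Dbp and Arntl, lie near the dotted line of equal change, whereas Myc, Foxq1 and Elovl3 moved in testosterone mice and lie close to 0 in vehicle mice.

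To separate what returned from what stayed, the difference between testosterone and vehicle mice was taken at each time, in contrasts that share no mouse. At treatment end 1258 genes (17.4%) differed, and after withdrawal 433 (6.0%). Of 7217 genes, 220 (3.05%) differed in the same direction at both times, 105 higher and 115 lower in testosterone mice, which is 17.5% of the treatment-end list and 50.8% of the withdrawal list. A further 9 genes differed in opposite directions at the 2 times, and 204 were called after withdrawal only. The change of the testosterone effect between the times was itself called for 158 genes (2.19%), 57 upward (0.79%) and 101 downward (1.4%). That count ranged from 26 without vehicle withdrawn mouse 3 to 542 without testosterone withdrawn mouse 1. With the actin ratio in the fit it was 1, and that gene was Phlda1, so every other change of the testosterone effect given below lost its call there.

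At treatment end 185 genes differed from vehicle by at least 2-fold, and these were followed to the later time. After withdrawal 88 of them (47.6%) still differed in the same direction, 37 higher and 51 lower. Another 63 (34.1%) were back: no longer called, with the whole 95% confidence interval of the difference from vehicle inside a bound of 1 on the log2 scale. For 32 (17.3%) the interval was too wide to place them, and 2 (1.08%), Cish and Phlda1, had crossed to the other side of vehicle. Of the 75 genes that had been raised, 37 were kept and 24 were back, and of the 110 lowered genes, 51 were kept and 39 were back. Between the testosterone groups, the raised genes that were back had a median change of -0.70, from a median difference of 1.35 at treatment end. For the lowered genes that were back it was 0.61, from -1.13. Both vehicle groups enter the definition of back, so it does not by itself show a change in the testosterone mice. With the actin ratio in the fit, 18 genes rather than 63 met the definition of back, and on log2(signal + 16) without a floor 29 did.

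**Figure D2:**
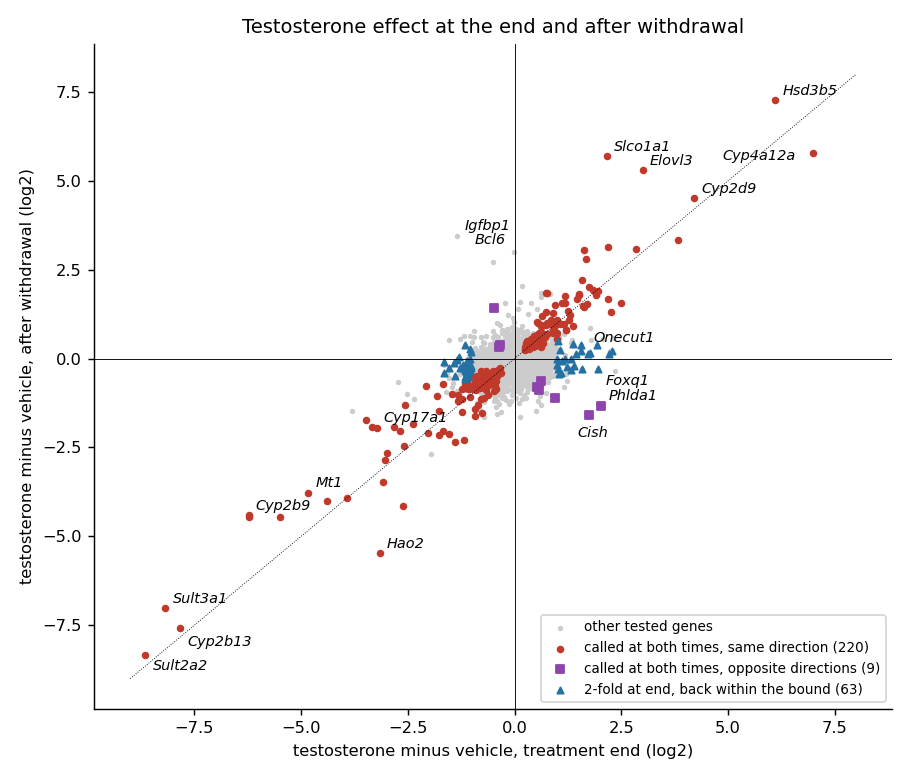
Each point is 1 of 7217 genes, with the log2 difference between testosterone and vehicle mice at treatment end on the x axis and after withdrawal on the y axis. The 220 red genes differed the same way at both times and many lie near the dotted line of equal effect, the 63 blue triangles lie near 0 on the y axis only, and the 9 purple squares changed sign.

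The kept genes were led by enzymes and transporters of the sex-biased liver. In the list of male-biased liver genes, 24 were tested, and 19 were higher in testosterone than in vehicle mice after withdrawal, with 1 lower, against 2.74% and 3.26% of all genes; at treatment end 17 were higher and 1 lower, against 9.42% and 8.01%. The median difference from vehicle over the list was 1.23 at treatment end and 1.91 after withdrawal, against 0.04 and -0.04 over all genes. From the first time to the second, the list shifted by a median of -0.26 between the testosterone groups (-0.01 over all genes). Between the vehicle groups its median shift was -0.74 (0.06 over all genes). There 13 of the 24 genes fell while none rose, against 6.83% and 11% of all genes. The larger later median therefore does not show a rise of the list in testosterone mice. In the list of female-biased genes, 33 were tested, and 29 were lower after withdrawal with none higher. At treatment end 28 were lower and 2 higher, and the list's medians were -2.39 and -1.94. Both lists were drawn up with earlier results of these data known.

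Hsd3b5, a male-specific steroid dehydrogenase of mouse liver, had signals of 1033, 985 and 1266 at treatment end and 561, 1090 and 683 after withdrawal. Vehicle mice had 2.52, 43.3 and 18.9 at treatment end and at most 0.889 later, under the floor of 4.842 below which signals were set equal. All 6 testosterone mice were far above every vehicle mouse, and the 2 testosterone groups overlapped. The change between them was -0.54 ± 0.51 (SE, log2; 95% interval -1.64 to 0.55; adjusted p = 0.55), and after withdrawal the level was at least 154-fold that of vehicle mice.

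Cyp2d9, the male-biased testosterone 16-alpha-hydroxylase, read 2616, 2525 and 2428 at treatment end and 1191, 2268 and 2528 after withdrawal, with vehicle mice at 58 to 244. The testosterone groups overlapped, and the change was -0.41 ± 0.34 (95% interval -1.13 to 0.31), so a fall of more than 2-fold lies inside the interval. Cyp4a12a, a male-specific fatty acid hydroxylase, read 447, 1018 and 510 at treatment end and 85.3, 371 and 611 after withdrawal, against at most 1.81 in any vehicle mouse. The lowest withdrawn liver was mouse 1, and the change of -1.20 ± 0.50 (95% interval -2.25 to -0.14) did not pass the adjustment (adjusted p = 0.14), though it passed without withdrawn mouse 3. After withdrawal Cyp4a12a remained at least 55.4-fold above vehicle.

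Slco1a1, an uptake transporter for organic anions, read 1155, 1005 and 1277 in testosterone mice at treatment end and 917, 1281 and 1052 after withdrawal, overlapping ranges with a change of -0.09 ± 0.69. Vehicle mice read 194, 319 and 271 at the first time and 106, 1.92 and 17.5 at the second, a fall that was called (adjusted p = 0.0031) with the lowest mouse set to the floor. The change of the testosterone effect was not called (adjusted p = 0.066). The difference from vehicle at treatment end, with an adjusted p of 0.043, was lost without any 1 treatment-end mouse, any 1 withdrawn testosterone mouse or vehicle withdrawn mouse 3. C6, a component of the complement membrane attack complex, was 4.53-fold above vehicle at treatment end and 8.84-fold after withdrawal, and its change in testosterone mice was -0.30 ± 0.29. In vehicle mice C6 fell by -1.26 (adjusted p = 0.0096), and the change of its testosterone effect was not called (adjusted p = 0.18). Alas2, the first enzyme of heme synthesis in red cell precursors and also transcribed in liver, was 3.36-fold and then 4.03-fold above vehicle, with 257, 257 and 327 at treatment end and 251, 342 and 335 later.

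Among the genes kept lower, some had signals near the floor at both times. Sult2a2, a female-specific sulfotransferase for hydroxysteroids, had 2096 to 3402 in the 6 vehicle mice, and 8.02, 5.35 and 0.728 in testosterone mice at treatment end. After withdrawal the testosterone mice read 29.1, 5.85 and 4.31, and the change of 0.66 ± 0.46 was not called (adjusted p = 0.39). Cyp2b13, a female-specific cytochrome P450, read 0.943, 3.31 and 0.655 and then 11.1, 3.85 and 4.17, against 766 to 1436 in vehicle mice, at least 192-fold lower than vehicle after withdrawal. Sult3a1, a sulfotransferase, read 3.00, 0.931 and 2.11 and then 10.5, 3.49 and 0.682, against 496 to 1685. In Sult2a2, Cyp2b13 and Sult3a1 alike, withdrawn mouse 1 had the highest signal of the 6 testosterone mice. These families and the Cyp4a12, Cyp2d and Hsd3b families have close copies in the mouse genome, and whether the probe sets separate them was not tested.

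Cux2, a female-biased transcriptional repressor, read 0.721 to 1.85 at treatment end and 8.54, 1.83 and 3.15 after withdrawal, against 20.5 to 35.7 in vehicle mice, and was at least 5.53-fold lower than vehicle after withdrawal. Mt2, a metallothionein that binds zinc and copper, read 35.8, 26.4 and 20.4 and then 28.5, 33.6 and 39.7, against 197 to 1452 in vehicle mice, 21.1-fold and 16-fold below them. Eci3, an isomerase of unsaturated fatty acid breakdown, was at least 15.3-fold below vehicle at both times. Prom1, a membrane glycoprotein of progenitor and epithelial cells, was 6.15-fold below vehicle at treatment end and 17.8-fold after withdrawal, with 9.34, 6.15 and 7.51 in the withdrawn mice. The change of its testosterone effect was not called (adjusted p = 0.055).

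Hao2, a peroxisomal oxidase of hydroxy acids, differed from these in what vehicle mice did. Vehicle signals were 29.0, 48.3 and 59.9 at treatment end and 340, 431 and 354 at the withdrawal time, a rise of 3.09 ± 0.35 (log2, adjusted p = 7.2e-05). In testosterone mice they were 2.38, 3.91 and 5.07 and then 7.43, 2.90 and 16.7, a change of 0.78 ± 0.35 that was not called (adjusted p = 0.18). At both times testosterone mice were under the floor, 2 of 3 and then 1 of 3, so the size of the difference from vehicle is a bound at treatment end (at least 8.91-fold lower) and is not given after withdrawal. With those mice set to the floor, the fitted change of the testosterone effect was called (adjusted p = 0.032), but not under 12 of the alternatives, among them any 1 treatment-end testosterone mouse left out.

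**Figure D3:**
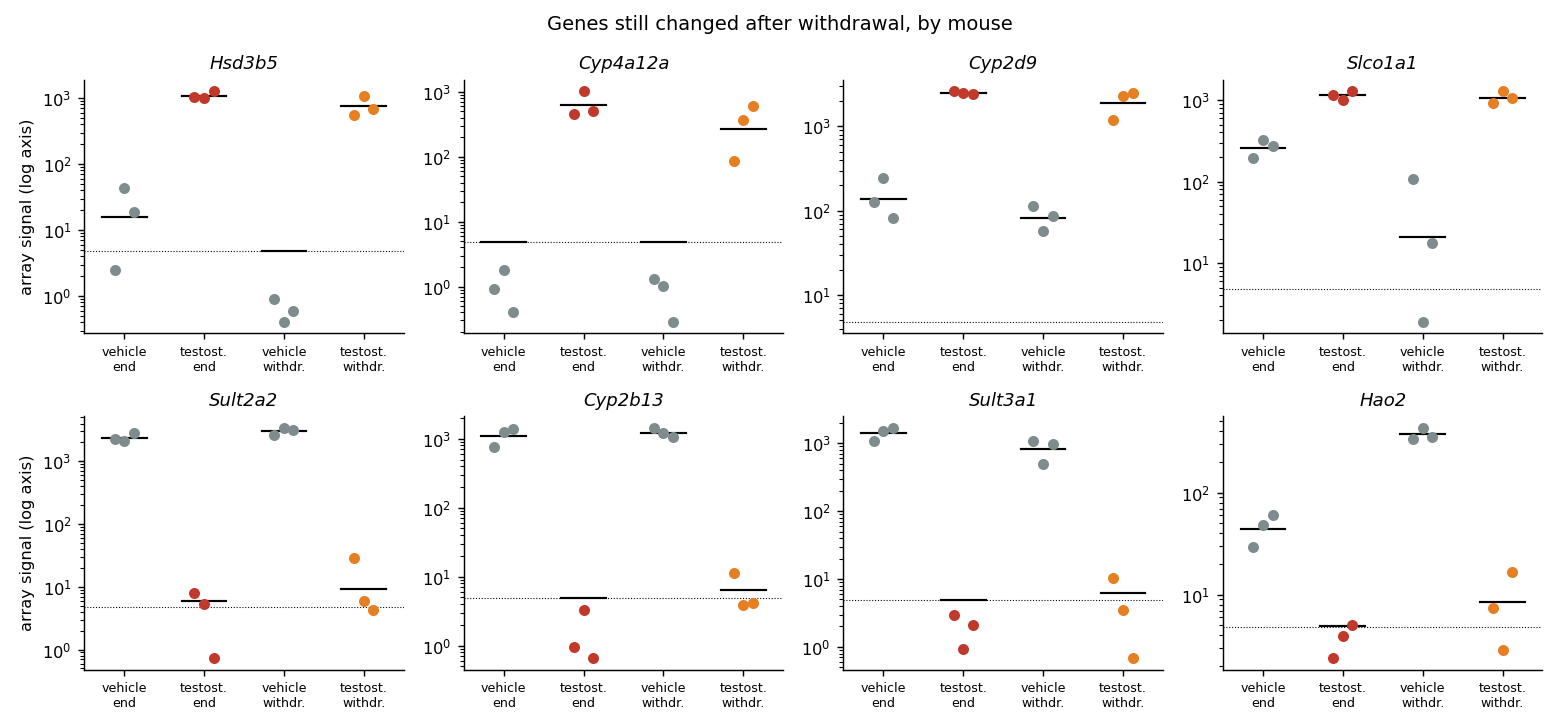
Signals of 8 genes in each mouse on a log axis, with a bar at the group mean of floored log2 signals and a dotted line at the floor of 4.842. Hsd3b5, Cyp4a12a, Cyp2d9 and Slco1a1 are high, and Sult2a2, Cyp2b13, Sult3a1 and Hao2 low, in all 6 testosterone mice.

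A group of female-biased genes rose after withdrawal, and each of them was still called below vehicle. Of the 33 tested, 9 rose between the testosterone groups and none fell, against 5.57% and 5.31% of all genes. In vehicle mice 8 of the 33 rose and 1 fell, against 11% and 6.83%. Cyp2b9, a female-specific cytochrome P450, read 30.9, 11.5 and 14.8 at treatment end and 111, 17.8 and 158 after withdrawal, against 1278 to 1520 in vehicle mice. It rose 3.9-fold (adjusted p = 0.035) and was 75-fold below vehicle at first and 21.3-fold after withdrawal. Withdrawn mouse 2 stayed within the treatment-end range, and mice 1 and 3 carried the rise. Acot3, a peroxisomal thioesterase, read 69.2, 27.1 and 27.5 and then 214, 56.8 and 132, against 292 to 549 in vehicle mice, and rose 3.14-fold (adjusted p = 0.02).

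Slc22a26, an organic anion transporter, had 1.74, 11.9 and 8.36 and then 26.7, 11.1 and 19.9, against 291 to 747 in vehicle mice. Mt1, a metallothionein that is not in the female-biased list, rose 2.94-fold, from 75.6, 39.5 and 54.6 to 127, 145 and 224, and remained 13.7-fold below vehicle. Cyp17a1, the 17-alpha-hydroxylase of steroid synthesis, was 9.38-fold and then 3.85-fold below vehicle, and here the narrowing was called (1.29 ± 0.22, adjusted p = 0.012). For Cyp2b9, Acot3, Slc22a26 and Mt1 the narrowing was not called (adjusted p = 0.058 to 0.26). The rises of Cyp2b9 and Acot3 were lost without treatment-end mouse 2 or 3 or withdrawn mouse 1 or 3. That of Slc22a26 was lost without treatment-end mouse 1 or 3 or withdrawn mouse 1 or 3, and that of Mt1 without treatment-end mouse 2 or withdrawn mouse 3. That of Cyp17a1 was lost without treatment-end mouse 1 or 2, withdrawn mouse 1 or 3, vehicle treatment-end mouse 1 or 3, or vehicle withdrawn mouse 3. None of these 5 rises was called once the actin ratio was a covariate, and no gene of the list was called higher in that fit. Aqp8, a water channel of hepatocyte membranes, rose alike in both treatments, by 1.29 ± 0.19 and 1.33 ± 0.19, and stayed 2.12-fold below vehicle, and its rise in testosterone mice was also lost with the actin ratio in the fit.

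The withdrawn mice differed among themselves in how close they came to vehicle. Over the 37 genes kept higher, mouse 1 had the lowest signal of the 3 withdrawn mice for 27 genes, and mice 2 and 3 for 5 genes each. Over the 51 genes kept lower, mouse 1 had the highest signal for 23, mouse 2 for 6 and mouse 3 for 22. At treatment end the corresponding counts were 13, 13 and 11 for the raised genes and 15, 20 and 16 for the lowered ones. These counts describe single livers and carry no test.

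Several genes raised at treatment end, among them the transcription factors Myc, Foxq1 and Onecut1, fell after withdrawal. Myc, a regulator of growth and cell division, read 93.1, 60.6 and 72.1 at treatment end and 10.3, 9.29 and 13.4 after withdrawal, against 9.51 to 24.2 in vehicle mice over both times. The withdrawn mice lay within or just under the vehicle range and well below the treatment-end mice, a fall of -2.77 ± 0.30 (log2, adjusted p = 4.6e-05), and vehicle mice changed by -0.07 ± 0.30. The difference from vehicle after withdrawal, -0.36 ± 0.30, had an interval from -1.01 to 0.29, which passes the bound of 1, so Myc is among the 32 genes not placed and is not counted as back.

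Foxq1, a forkhead transcription factor, read 177, 161 and 170 and then 24.97, 31.03 and 26.5, with vehicle mice at 39.3 to 48.4 and then 28.05 to 39.6. It fell 6.17-fold in testosterone mice (adjusted p = 6.8e-08), and its testosterone effect moved from 1.96 to -0.28, a change of -2.24 ± 0.21 (adjusted p = 7.1e-05). Onecut1, the hepatocyte factor HNF6, read 127, 173 and 186 and then 37.7, 62.2 and 74.8, within the vehicle range of 30.9 to 84.9. It fell 2.86-fold (adjusted p = 0.0055), and the change of its testosterone effect was not called (adjusted p = 0.06). The other Onecut1 probe set changed by only -0.15 on the log2 scale between the testosterone groups, not called. Its difference from vehicle was 1.035 at treatment end and 0.65 after withdrawal, so the return of Onecut1 rests on 1 probe set. Gadd45g, a growth arrest and stress gene, fell 3.17-fold from 100.2, 116 and 90.6 to 22.0, 27.8 and 53.8, against 12.4 to 36.4 in vehicle mice. Plk3, a stress-responsive kinase, fell 4.41-fold. The falls of Myc, Foxq1, Gadd45g and Plk3 were kept with the actin ratio in the fit, and that of Onecut1 was not.

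Other genes had been lowered at treatment end and rose after withdrawal, among them Cyp7a1 and Akr1d1 of bile acid and steroid metabolism. Cyp7a1, which controls the rate of the classic pathway from cholesterol to bile acids, read 1052, 518 and 676 at treatment end and 1054, 1464 and 1535 after withdrawal, against 1468 to 2253 in vehicle mice. All 3 withdrawn mice were above the treatment-end mice, mouse 1 only just. Cyp7a1 rose 1.86-fold (adjusted p = 0.01), and its difference from vehicle went from -1.53 to -0.27, a change of 1.26 ± 0.28 (adjusted p = 0.036). Akr1d1, the 5-beta-reductase that acts on bile acid precursors and steroid hormones, rose 1.57-fold, from 346, 337 and 403 to 518, 609 and 572, against 621 to 871 in vehicle mice, and its effect changed by 0.86 ± 0.15 (adjusted p = 0.012). All 3 withdrawn mice were still under the lowest vehicle mouse for Akr1d1, within the bound used for a return. The other Akr1d1 probe set did not rise, changing by -0.03 between the testosterone groups, not called. Its difference from vehicle was -0.31 at treatment end and -0.71 after withdrawal, so the return of Akr1d1 rests on 1 probe set.

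Igf1, the growth factor that liver secretes under growth hormone, read 1781, 1698 and 1783 at treatment end and 2240, 2340 and 2262 after withdrawal, with vehicle mice at 1991 to 2627. It rose 1.3-fold (adjusted p = 0.0064) and its effect moved from -0.47 to 0.06 (change 0.53 ± 0.11, adjusted p = 0.027). Prox1, a homeobox factor of hepatocytes, rose 2.29-fold, from 23.2 to 26.2 up to 49.96 to 64.1, against 41.8 to 62.4 in vehicle mice. At treatment end Igf1 was 1.39-fold and Prox1 1.96-fold below vehicle. Both were under the 2-fold limit, so neither is among the 63 genes counted as back. The rises of Cyp7a1, Akr1d1, Igf1 and Prox1 were each lost with the actin ratio in the fit. Igf1 also lost its call with the mean of all probe sets of the gene (0.18) and with median centring (0.33), and Akr1d1 with the mean of its probe sets (0.31).

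In the list of genes expressed around the central vein of the liver lobule, 11 of 18 tested rose between the testosterone groups and none fell, against 5.57% and 5.31% of all genes. At treatment end 8 of the 18 had been lower than vehicle and 3 higher, against 8.01% and 9.42% of all genes. After withdrawal 2 were higher and none lower, against 2.74% and 3.26%. The list's median change was 0.60 (-0.01 over all genes), against 0.15 in vehicle mice. There 6 genes of the list rose and 3 fell, against 11% and 6.83% of all genes. The 11 rises in testosterone mice included Tbx3, a T-box transcription factor, 3.17-fold, Cyp8b1, the sterol 12-alpha-hydroxylase, 2.28-fold, and Rhbg, an ammonium transporter, 2.27-fold. Axin2, a feedback inhibitor of Wnt signalling, was also called (adjusted p = 0.042), from 3.61, 13.7 and 10.3 to 28.3, 22.5 and 15.6, with no size given because 1 treatment-end mouse was under the floor. The rise of Axin2 was lost without treatment-end mouse 1 or 3, withdrawn mouse 1 or 2 or any 1 withdrawn vehicle mouse, and that of Rhbg without treatment-end mouse 1 or withdrawn mouse 2. Tbx3 and Axin2 also rose in vehicle mice, by 1.34 and 1.64 on the log2 scale, as did Cyp8b1 by 0.89, whereas Rhbg changed there by 0.26 ± 0.28. The summed signal of the list was 19927 to 20724 at treatment end and 23111 to 26387 after withdrawal, with 22718 to 24077 in vehicle mice over both times. None of the 11 rises was called with the actin ratio in the fit. Of 15 periportal genes tested, 2 rose and none fell.

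**Figure D4:**
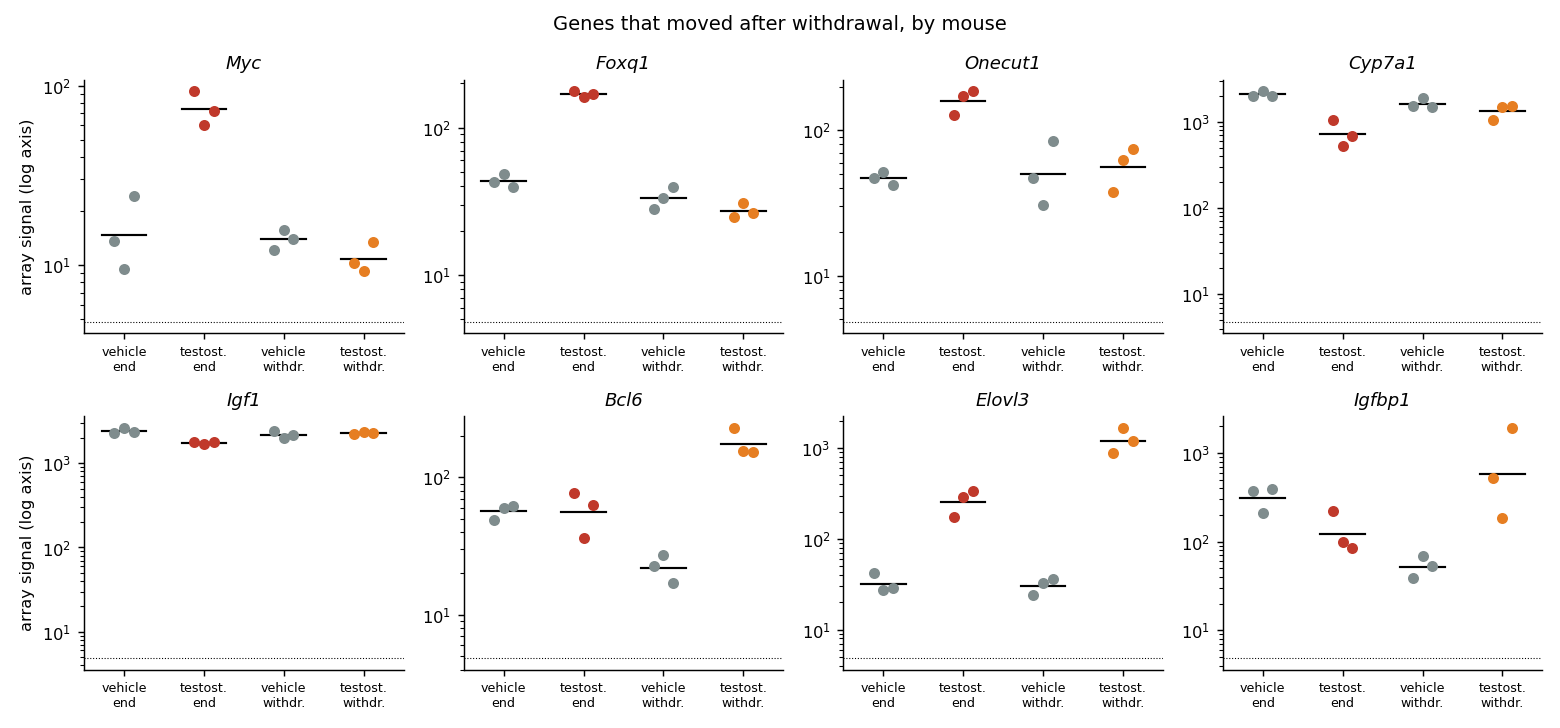
Signals of 8 genes in each mouse on a log axis, with a bar at the group mean of floored log2 signals and a dotted line at the floor of 4.842. Myc, Foxq1 and Onecut1 were high at treatment end only, Cyp7a1 and Igf1 were low at treatment end only, and Bcl6, Elovl3 and Igfbp1 reached higher levels in withdrawn testosterone mice than in vehicle mice at that time.

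Some genes moved further from vehicle after the injections stopped. Bcl6, a repressor with higher levels in male than in female mouse liver, read 76.5, 36.3 and 63.4 at treatment end, around the vehicle mice of that time at 48.9, 59.7 and 62.2. After withdrawal it read 229, 155 and 153 in testosterone mice and 22.6, 27.1 and 17.0 in vehicle mice. The groups did not overlap at the later time and did at the earlier one, and the testosterone effect went from -0.01 ± 0.25 to 3.01 ± 0.25 (log2). The change of 3.02 ± 0.35 was called (adjusted p = 0.00048) and was made of a rise of 1.65 in testosterone mice and a fall of -1.37 in vehicle mice. The rise in testosterone mice was kept with the actin ratio in the fit.

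Elovl3, a male-biased fatty acid elongase, was raised at treatment end, at 176, 290 and 335 against 27.1 to 42.3 in vehicle mice, and went on to 889, 1670 and 1199 against 24.4 to 36.1. It rose 4.71-fold in testosterone mice (adjusted p = 7.3e-05), was 39.6-fold above vehicle after withdrawal, and kept its call with the actin ratio in the fit. Together with Bcl6 it made up the 2 of 24 male-biased genes that rose, and 4 fell, against 5.57% and 5.31% of all genes. None rose and 13 fell in vehicle mice, against 11% and 6.83%. Among the 4 that fell in testosterone mice were Ugt2b38, a glucuronosyltransferase, by -1.21 ± 0.36, and Egfr, the epidermal growth factor receptor, by -0.66 ± 0.19. Egfr has 4 probe sets, which do not move together: the one standing for the gene fell by -0.66 and another by -2.63, and those remaining changed by 0.46 and 0.99, not called. Ugt2b38 and Egfr fell by -1.44 and -1.22 in vehicle mice, and both calls in testosterone mice were lost without withdrawn mouse 1 or 3 or any 1 treatment-end mouse.

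Igfbp1, a binding protein for insulin-like growth factors that rises in fasting, read 224, 98.4 and 85.5 at treatment end and 526, 186 and 1915 after withdrawal, with 211 to 393 and then 39.0 to 68.2 in vehicle mice. The testosterone groups overlapped and the withdrawn mice spanned a wide range, and the 4.64-fold rise (adjusted p = 0.027) was lost without treatment-end mouse 2 or 3, without withdrawn mouse 3, and once the actin ratio was a covariate. The change of its testosterone effect was 4.80 ± 0.84 (adjusted p = 0.012), of which vehicle mice gave a fall of -2.59. Efna1, the ephrin-A1 ligand, rose from 81.8 to 94.98 up to 170 to 248 in testosterone mice and fell in vehicle mice from 118 to 135 down to 73.3 to 83.1. Its testosterone effect turned from -0.48 to 1.42. Herpud1, a component of the endoplasmic reticulum degradation machinery, read 797 to 1136 and then 1450 to 1927 in testosterone mice, and 1095 to 1269 and then 536 to 545 in vehicle mice. Its testosterone effect went from -0.23, not called, to 1.56.

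The list of genes of the unfolded protein response and of folding in the endoplasmic reticulum had a raised median against vehicle at both times. Of 31 tested, 16 were higher than vehicle at treatment end and 14 after withdrawal, against 9.42% and 2.74% of all genes, with none lower at either time, and the list's median difference was 0.40 at both. Between the testosterone groups 5 rose and 3 fell, against 5.57% and 5.31% of all genes. Over the same interval 4 rose and 6 fell in vehicle mice, against 11% and 6.83%. Creld2, a resident chaperone, read 389, 528 and 227 and then 452, 367 and 512, against 84.1 to 151 in vehicle mice. Dnajb9 (1.75-fold), Syvn1 (1.79-fold), Herpud1 (1.63-fold) and Ddit3 (2.17-fold) rose in testosterone mice. Ddit3, which encodes the stress factor CHOP, was not among the genes that differed from vehicle at either time (-0.07 and 0.43). Of the 5 rises, 2 were called with the actin ratio in the fit. Herpud1 was called above vehicle after withdrawal only, so the 16 and 14 genes are not all the same ones. The list's differences from vehicle were not counted with the actin ratio in the fit.

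Cish and Phlda1 crossed from above to below vehicle. Cish, a STAT5 target that feeds back on cytokine receptors, read 118, 128 and 150 at treatment end against 29.6 to 46.9 in vehicle mice. After withdrawal it read 39.1, 29.4 and 30.5 against 71.1 to 116. No testosterone mouse overlapped a vehicle mouse at either time, and the testosterone effect went from 1.73 ± 0.21 to -1.59 ± 0.21. Phlda1, a pleckstrin homology protein, went from 977, 830 and 868 to 229, 215 and 179, while vehicle mice went from 190 to 243 up to 381 to 605. Its effect changed by -3.36 ± 0.23 (adjusted p = 2.2e-06). In both genes the fall in testosterone mice was joined by a rise in vehicle mice, of 1.31 and 1.25, and the falls were kept with the actin ratio in the fit, though the difference of Cish from vehicle at treatment end was not. Among the other genes called in opposite directions were Wsb1, Stim1 and Foxa2, a liver pioneer factor. Foxa2 read 99.9, 129 and 101 and then 99.0, 104 and 103 in testosterone mice, a change of -0.10 ± 0.13, while vehicle mice rose from 63.0 to 84.8 up to 177 to 205. Its difference from vehicle at treatment end was lost with the actin ratio in the fit, and those of Wsb1 and Stim1 were lost at one time or the other when single mice were left out.

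The growth hormone and STAT5 list held 24 tested genes, of which 5 rose and 4 fell between the testosterone groups, against 5.57% and 5.31% of all genes, with a median change of 0.09 (-0.01 over all genes). Beside Cish, Bcl6, Igf1, Igfbp1, Onecut1 and Egfr, Stat5b rose 1.55-fold in testosterone mice and 1.74-fold in vehicle mice. Socs3, a cytokine signalling inhibitor, fell 2.29-fold, from 67.2, 65.6 and 96.0 to 34.8, 35.0 and 29.1, and Stat5b and Socs3 lost their calls when single mice were left out, Socs3 without treatment-end mouse 3 or withdrawn mouse 2 or 3 and Stat5b without any testosterone mouse but treatment-end mouse 2. Ghr, the growth hormone receptor, read 2712 to 3027 and then 2402 to 2998, a change of -0.12 ± 0.09 (95% interval -0.32 to 0.08). Socs2, another STAT5 target, changed by 0.22 ± 0.25.

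The promoter of Bcl6 is shown because STAT5 dimers are known to bind TTCNNNGAA, and Bcl6 has the largest called rise of the testosterone effect after Igfbp1. The sequence is the 250 bases before one of the pair of Bcl6 starts in the RefSeq promoter table (GRCm38.p6, chr16:23981284-23981533, minus strand), with matches to TTCNNNGAA in capitals.
Bcl6: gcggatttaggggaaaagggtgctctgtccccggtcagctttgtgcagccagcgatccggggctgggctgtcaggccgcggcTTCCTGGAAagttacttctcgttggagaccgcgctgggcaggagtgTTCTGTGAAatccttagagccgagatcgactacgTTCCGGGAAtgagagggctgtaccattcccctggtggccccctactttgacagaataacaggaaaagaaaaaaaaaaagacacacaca
The window holds 3 matches, at positions -168, -122 and -88 from the start, and the window before the other start holds 1, at -118. That motif, read on both strands, is in the windows of 3 of the 23 growth hormone and STAT5 genes with a promoter entry, 1 of 20 male-biased genes and 2 of 26 female-biased genes, against 413 of 5951 genes tested (6.94%). A match is a description of these letters and shows neither binding nor a cause.

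The genes of the circadian clock gave the 3 largest falls between the testosterone groups, and genes of the same list changed in vehicle mice. Of 19 clock genes tested, 5 rose and 10 fell in testosterone mice, against 5.57% and 5.31% of all genes. In vehicle mice 4 rose and 10 fell, against 11% and 6.83%. None of the 19 differed from vehicle at treatment end, where 9.42% of all genes were higher and 8.01% lower. After withdrawal 1 was higher and 2 lower, against 2.74% and 3.26%. The change of the testosterone effect was called for none of them. Dbp, a transcription factor at the output of the clock, read 721, 856 and 814 at treatment end and 12.2, 12.1 and 47.0 after withdrawal in testosterone mice, and 515 to 795 and then 7.53 to 15.8 in vehicle mice. It fell 41.7-fold in testosterone mice and 55.4-fold in vehicle mice.

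Arntl, the BMAL1 activator, read 17.6, 14.1 and 11.01 and then 91.8, 78.3 and 84.4 in testosterone mice, 6.05-fold higher, and rose 7.11-fold in vehicle mice. Per1, Per2 and Per3, the period repressors, fell by -2.30, -2.19 and -3.28 in testosterone mice and by -2.04, -1.77 and -2.44 in vehicle mice, with signals under the floor set to it for Per1 and Per3. Usp2, a clock-driven ubiquitin protease, fell 9.95-fold and 7.82-fold, and Nfil3, a repressor of the same sites as Dbp, rose 5.5-fold and 3.31-fold. Arntl, Nfil3, Dbp, Usp2 and Per3 kept their calls once the actin ratio was a covariate, and Per1 and Per2 did not. In that fit 3 clock genes were higher and 7 lower. The part of the hour of collection in the other changes between the times was not tested.

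The promoters of Per1 and Per3 are shown for the letters through which clock factors are known to act, the E-box CACGTG bound by CLOCK and BMAL1 and the D-box TTANGTAA bound by DBP and NFIL3. Both are the 250 bases before a RefSeq start (GRCm38.p6), Per1 at chr11:69098699-69098948 on the plus strand and Per3 at chr4:151044666-151044915 on the minus strand, with matches in capitals.
Per1: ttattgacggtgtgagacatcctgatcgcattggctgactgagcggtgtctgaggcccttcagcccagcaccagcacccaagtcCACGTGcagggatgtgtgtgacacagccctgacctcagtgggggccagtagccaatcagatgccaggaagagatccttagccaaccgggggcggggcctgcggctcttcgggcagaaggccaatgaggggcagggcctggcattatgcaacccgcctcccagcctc
Per3: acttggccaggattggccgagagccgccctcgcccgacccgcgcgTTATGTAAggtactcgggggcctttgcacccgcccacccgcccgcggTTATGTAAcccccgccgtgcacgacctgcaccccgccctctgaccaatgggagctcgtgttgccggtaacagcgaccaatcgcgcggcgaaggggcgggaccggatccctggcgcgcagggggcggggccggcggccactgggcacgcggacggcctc
Per1 holds an E-box at position -166 before the start shown and none in the window before its other start, and Per3 holds D-boxes at positions -205 and -158. The E-box is in 3 of 16 clock promoters (18.8%) against 10.4% of the 5951 tested genes with an entry, and the D-box in 1 of 16 (6.25%) against 1.81%. Both motifs were chosen after the clock genes had been seen to change, and both strands were searched.

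Genes of fat and sugar metabolism were compared in both treatments, where 5.57% of all genes rose and 5.31% fell in testosterone mice and 11% rose and 6.83% fell in vehicle mice. In the fatty acid synthesis list, 2 of 24 rose and 7 fell in testosterone mice, and 2 rose and 5 fell in vehicle mice. Thrsp, an activator of fat synthesis, fell from 3006, 2963 and 3660 to 581, 976 and 943, and in vehicle mice from 3174 to 3445 down to 800 to 1374. Lpin1, a phosphatidate phosphatase and co-regulator, fell 9.71-fold in testosterone mice, from 932, 394 and 542 to 48.7, 57.8 and 77.0, and 2.54-fold in vehicle mice. Its effect changed by -1.93 ± 0.38 (adjusted p = 0.021), a call lost without withdrawn testosterone mouse 2 or withdrawn vehicle mouse 2 or 3. Lpin2 fell 3.9-fold and 1.88-fold.

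Of 35 genes of fatty acid oxidation, 7 rose and none fell in testosterone mice (5.57% and 5.31% of all genes), and 13 rose and 2 fell in vehicle mice (11% and 6.83%). Pdk4, the kinase that shuts off pyruvate dehydrogenase, rose 3.93-fold and 3.91-fold, and Plin2, which coats lipid droplets, rose 1.79-fold and 1.41-fold. Of 20 genes of glucose production and glycogen, 4 rose and 4 fell in testosterone mice, against the same shares of all genes. Ppp1r3c, a glycogen-targeting subunit of protein phosphatase 1, rose 4.68-fold and 6.18-fold, and Pfkfb3, an activator of glycolysis, fell 3.56-fold in testosterone mice and changed by -0.54 ± 0.38 in vehicle mice. In cholesterol synthesis, 2 of 21 rose and 5 fell in testosterone mice, and 1 rose and 11 fell in vehicle mice, again beside those shares. Insig2, which retains the SREBP processing complex, rose 3.34-fold and 3.08-fold, and Sqle, squalene epoxidase, fell 1.75-fold and 2.58-fold.

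In amino acid metabolism 6 of 34 genes rose and none fell in testosterone mice, against 5.57% and 5.31% of all genes. At treatment end 12 of the 34 had been lower than vehicle (8.01% of all genes), and 2 were lower after withdrawal (3.26%). Got1, the cytosolic aspartate aminotransferase, read 701, 599 and 970 and then 1111, 1489 and 1053, against 1301 to 1807 in vehicle mice, and rose 1.62-fold (adjusted p = 0.015). Of 42 acute phase and complement genes, 6 rose and 4 fell in testosterone mice, against the 5.57% and 5.31% of all genes. Lcn2, a neutrophil-associated acute phase protein, was low in all 6 testosterone mice (8.66 to 22.1), with vehicle values of 102, 2008 and 56.4 and then 34.2, 20.8 and 55.3, and its change between the testosterone groups was -0.40 ± 0.90.

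**Figure D5:**
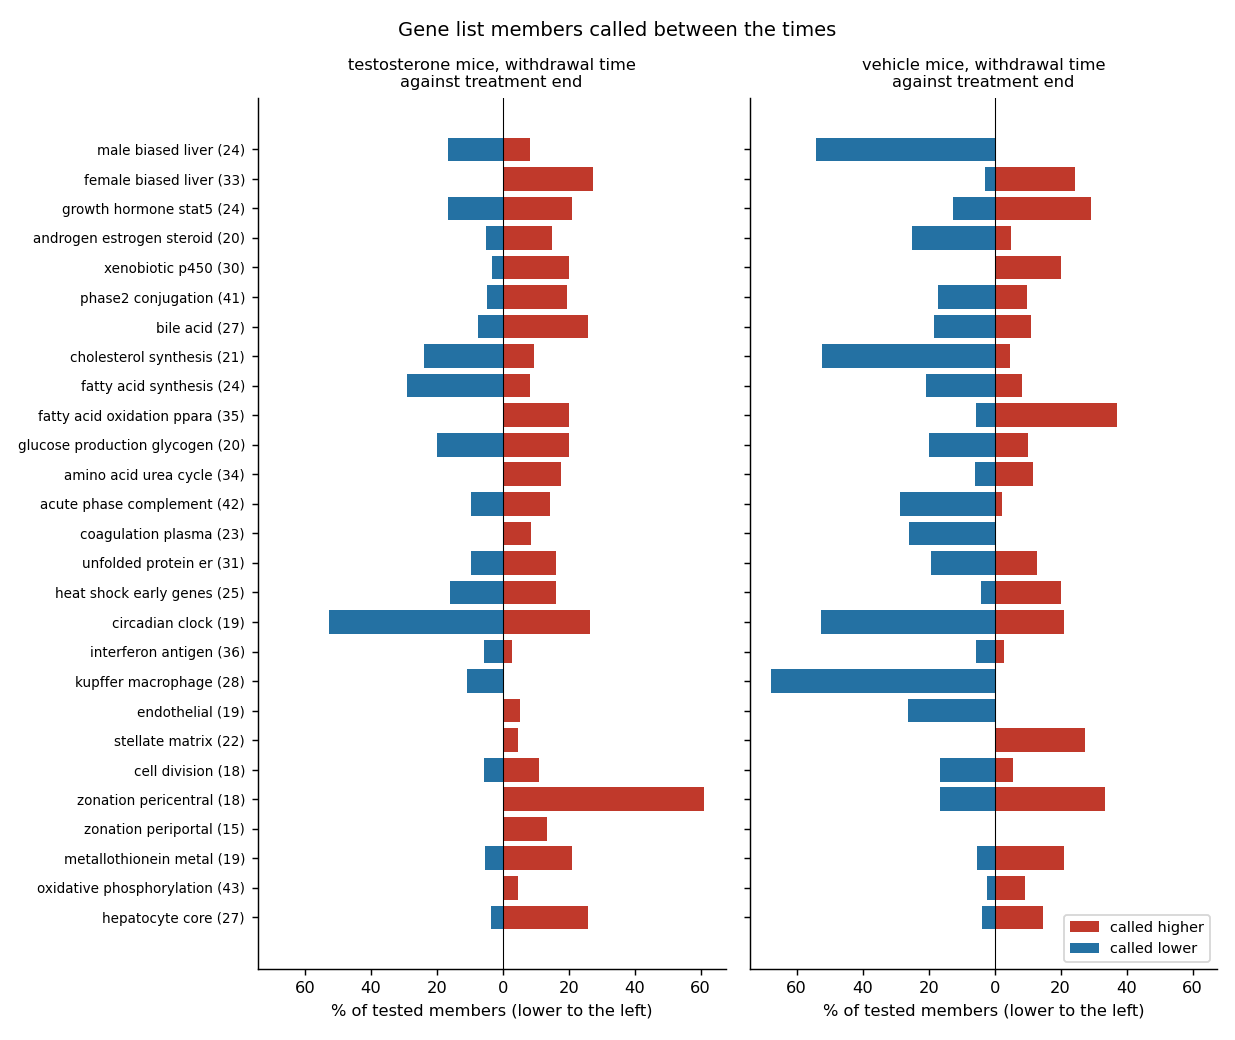
For each gene list with at least 10 genes tested (number in brackets), bars show the percent of tested members called higher (red, to the right) and called lower (blue, to the left) at the withdrawal time, in testosterone mice on the left panel and vehicle mice on the right. The clock list has 5 higher and 10 lower of 19 in testosterone mice and 4 and 10 in vehicle mice, and the pericentral list has 11 and 0 of 18 against 6 and 3.

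Among markers of other liver cells, 28 Kupffer cell and macrophage genes were tested. None rose and 3 fell between the testosterone groups (Ctss, Cd14 and Cd163, by -0.65 to -0.71), against 5.57% and 5.31% of all genes, and 19 fell in vehicle mice, against 6.83%. The difference between those counts was not tested, and all 3 calls were lost with the actin ratio in the fit and when single testosterone mice were left out. The summed signal of the list was 4948 to 5773 at treatment end and 4008 to 4594 after withdrawal, with 6815 to 10083 and 3588 to 6250 in vehicle mice. In these whole livers fewer cells of a type and less RNA per cell cannot be told apart. At treatment end 13 of these genes were below vehicle, against 8.01% of all genes, and after withdrawal 1 was, against 3.26%.

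Of 36 interferon and antigen-presentation genes, 14 were below vehicle at treatment end and 9 after withdrawal, against 8.01% and 3.26% of all genes. Between the testosterone groups 1 of the 36 rose and 2 fell, as did 1 and none of 19 endothelial genes and 1 and none of 22 stellate cell and matrix genes. Over all genes 5.57% rose and 5.31% fell, so these counts are near or under the background. No T or NK cell marker of the 15 on the array passed the filter. Of 24 exocrine pancreas genes on the array 3 were tested and none changed between the testosterone groups. Cela1, an elastase also found outside the pancreas, read 320, 270 and 344 and then 446, 509 and 282, a change of 0.37 ± 0.22, and was 1.66-fold and then 3.57-fold above vehicle. Vehicle mice fell by -0.74 for Cela1 (adjusted p = 0.032), and the change of its testosterone effect was not called (adjusted p = 0.069). In the hepatocyte list 7 of 27 genes rose and 1, Cebpb, fell, from 753, 657 and 618.5 to 306, 246 and 308. The summed signal of that list was 78539 to 81558 at treatment end and 82589 to 94710 after withdrawal.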

How the data were processed

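Liver RNA of 12 female mice was measured on 12 expression arrays, 3 mice in each of 4 groups set by the sample titles. The deposited values are linear signal intensities that the authors computed with MAS5 in GCOS, per the submitters' processing notes; every array had the same 2% trimmed mean of 100.05. Of 22690 probe sets, 64 were controls, 20380 named 1 gene, 691 several and 1555 none, and 20351 of the 20380 matched RefSeq. Signals were floored at the 25th percentile (4.842) and taken to log2, the probe set with the highest mean stood for a gene, and genes above the array median on at least 3 of 12 arrays were kept, leaving 7217 of 12393. limma 3.58.1 in R 4.3.3 was fitted on all 12 arrays with 4 group means, eBayes with a variance trend and Benjamini-Hochberg adjustment; SE and 95% intervals come from that fit. A fold is given as at least where a mouse of the dimmer group was at the floor. The number of arrays limits the precision.

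The series' design text calls each array a single mouse, and no 2 arrays held the same values. Genes were named by rule: the 15 largest non-overlapping changes each way, the 10 most changed each way at both times but not between them, the 10 largest each way among changed effects, up to 4 called members of each list, 5 of opposite direction, and genes listed by hand, of which Esr1 was under the filter. The members, lists and rules were chosen with earlier results of these data known. The script was tested on simulated data. Alternatives covered the floor, filter, probe set rule, scaling, variance trend, samples in the fit, a replicate block, the actin ratio, thresholds and each mouse left out.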

Additional observations from a re-analysis of the deposited data

Results flagged for a closer look

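The effect of testosterone, taken as the log2 difference from vehicle mice, differed between the 2 times by a test of the difference itself for the genes that follow, each with the change of effect from treatment end to the withdrawal time. The effect moved upward for Igfbp1 (4.80), Bcl6 (3.02), Elovl3 (2.30), Efna1 (1.89), Il1b (1.83), Herpud1 (1.79), C1galt1 (1.68), Ctse (1.56) and Met (1.54). Smaller upward moves were those of Slc22a7 (1.43), Cyp17a1 (1.29), Cyp7a1 (1.26), Prox1 (0.93), Akr1d1 (0.86), Igf1 (0.53) and Serpinf2 (0.46). The other probe set of Akr1d1 did not share its upward move, with an effect of -0.31 at treatment end and -0.71 after withdrawal.

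The effect moved downward for Phlda1 (-3.36), Cish (-3.32), Myc (-2.70), Hao2 (-2.31), Foxq1 (-2.24), Ampd2 (-2.09), Gadd45g (-2.07) and Wsb1 (-2.05). Further downward moves were those of Ccdc25 (-1.97), Lpin1 (-1.93), Foxa2 (-1.47), Gdap10 (-1.32), Stim1 (-1.26), Cebpb (-0.79) and Clpx (-0.73). The size for Hao2 is the fitted one, with testosterone mice under the floor at both times. The other probe set of Cebpb did not share its downward move, with an effect of 0.08 at treatment end and 0.14 after withdrawal. With the actin ratio in the fit, the change of effect was called for Phlda1 alone among all 7217 genes. The vehicle mice at both times enter each of these values.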

How the results depend on the processing

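For the 4 group contrasts and the change of effect, counts of called genes depended on the settings as follows. Between the testosterone groups 785 genes became 490 with no filter, 110 with the actin ratio as a covariate, 304 at adjusted p under 0.01 and 159 at 2-fold, and 454 to 888 with 1 mouse left out. The change of effect (158) became 37 with no filter, 72 with no variance trend, 1 with the actin ratio, 13 at 0.01 and 70 at 2-fold, and 26 to 542 with 1 mouse left out. The difference from vehicle at treatment end (1258) became 78 with the actin ratio, 511 at 0.01 and 185 at 2-fold, and 789 to 1360. After withdrawal (433) it became 286 with no filter, then 263, 191 and 124 for the actin ratio, 0.01 and 2-fold in turn, and 236 to 634. The vehicle change (1288) became 792 with no filter and in the same order 232, 467 and 205, and 584 to 1386. Genes changed at both times (220) became 144 with no filter and in that order 53, 110 and 65, and 155 to 231. Genes back within the bound (63) became 29 on log2(signal + 16) and 18 with the actin ratio, and 52 to 94.

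Same-numbered mice did not deviate together (correlations -0.0264, -0.0158 and -0.016), so the numbers do not pair them. With a replicate block the counts were 624 (613 of them among the 785), 55 for the change of effect, 1025 at treatment end, 355 after withdrawal, 1021 in vehicle mice, 193 at both times and 63 back.

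Among values of named genes, 4 reversed: Cox5b between the testosterone groups with the mean of probe sets (-0.0702), Ampd2 (0.21, and 0.10 for its change of effect) and H2-D1 (-0.43) without probe sets that share sequence with other genes. Of the other values, 4548 kept their side of the threshold, 538 lost the call and 9 gained it. A change of sign was counted as reversed only where the main fit or the alternative called the gene. The median change over all genes was -0.06 with median centring and -0.02 with quantile normalization, against -0.01. The causes were not tested. Signals near the floor limit low genes such as Cux2 and Per1.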
